A study of Mus musculus with 4 samples.

Results

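Livers of 24-hour fasted PPARα-null mice were compared with livers of 24-hour fasted wild-type mice, to ask which liver mRNAs differ when the receptor is absent in the fasted state. All mice were males aged 12 to 20 weeks, the wild-type animals on 129S1/SvImJ and the animals without PPARα on 129S4/SvJae, and food was withheld for 24 hours from the onset of the light period. Each group was 1 pool of liver RNA from 5 mice, measured on 1 Affymetrix MOE430A array, and pools of fed wild-type and fed PPARα-null mice, killed when the dark period ended, were measured in the same way. The null mice lack PPARα from birth and in all tissues, and the genotypes were compared on different 129 substrains, so that the effects of genotype and of substrain cannot be told apart. With 1 pooled array a side, no difference had a replicate check, and none was tested. The members of the comparison were the probe sets, other than controls, that read at least 64 units on the brighter of the 2 fasted arrays, which were 5697 of 22626 probe sets on 2 of the 4 arrays. They covered 3579 genes, each described by its brightest member probe set.

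PPARα is a nuclear receptor that binds fatty acids and, as a heterodimer with the retinoid X receptor, occupies direct repeats of a hexamer spaced by 1 base in the DNA of its target genes. In the liver it is best known for inducing the genes of fatty acid transport, mitochondrial and peroxisomal β-oxidation, microsomal ω-oxidation and ketone body formation during fasting, when fatty acids released from adipose tissue reach the liver. It is also known for restraining inflammatory gene expression. Values are GCRMA intensities on a linear scale, in units, and the 4 values of a gene are given throughout in the order fed wild-type, fasted wild-type, fed PPARα-null and fasted PPARα-null liver. A difference is the log2 value of the fasted PPARα-null pool minus that of the fasted wild-type pool unless the fed pools are named, values below 16 units were set to 16, and "lower" or "higher" means at least 1.5-fold. Where the dimmer array was at or below 16 units, the fold is a lower bound.

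The targeted gene was lower in both null pools. The Ppara probe set read 583, 755, 104 and 16.3 units, which put fasted null liver 46.3-fold below fasted wild-type liver. The fasted null pool was thus close to the floor of 16 units, while the fed null pool was above it. The sources used here do not say whether the probes lie within the disrupted exon.

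Of the 5697 probe sets, 684 (12.0%) were higher and 1054 (18.5%) were lower in the fasted null pool. Counted as genes, 448 of 3579 (12.5%) were higher and 672 (18.8%) lower, and these shares are the background for every gene list. The median difference over all genes was -0.05. A probe set could enter through 1 bright array, and 491 did so through the wild-type and 329 through the null array. Among the 4877 probe sets at 64 units or more on both arrays, 469 (9.62%) were higher and 706 (14.5%) lower. Deficits made up 60.6% of all probe sets past the threshold, but 45.7% once a trend with intensity was taken out by lowess (1007 higher, 846 lower), so which direction prevailed depended on the scaling. Large differences were found on both sides, with 83 genes lower and 65 higher by 4-fold or more, and 11 lower and 12 higher by 16-fold or more. In the dimmest of 5 brightness classes, 6 to 7 on the log2 scale of the brighter array, 22.4% of the probe sets were lower, and in the brightest, at 13 and above, 11.4%. At the brightness limit, the 142 probe sets between 60 and 64 units had a median absolute difference of 0.38, and the 146 between 64 and 68 units one of 0.42. Within 0.01 of the fold threshold on the log2 scale lay 65 probe sets.

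**Figure D1:**
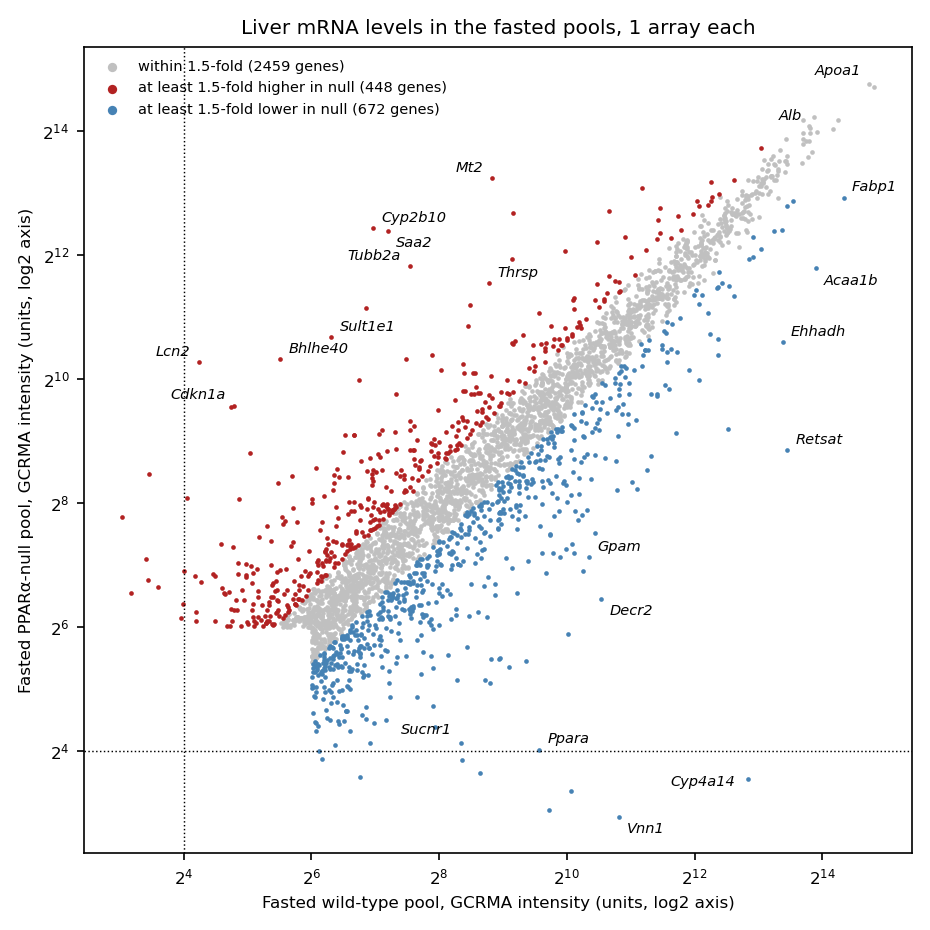
Intensity of each of 3579 genes in the fasted wild-type pool (horizontal, units, log2 axis) and in the fasted PPARα-null pool (vertical, units, log2 axis), 1 array each, with dotted lines at the floor of 16 units. Red points are the 448 genes at least 1.5-fold higher in null liver, blue points the 672 at least 1.5-fold lower and grey points the rest. Cyp4a14 and Vnn1 lie far below the band of grey points, while Lcn2, Cyp2b10, Saa2 and Mt2 lie far above it.

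Different probe sets of a gene gave a view of probe error, though not of the variation between mice. For the 1087 genes with more than 1 member probe set, the difference varied within a gene with an SD of 0.363. Of 178 lower genes with a further probe set, 125 had all further probe sets past 1.5-fold in the same direction, and in 1 gene a further probe set was past the threshold the other way. Of 113 higher genes, 65 had all further probe sets past the threshold in the same direction, and 5 had one past it the other way. Among genes that differed by 4-fold or more, the further probe sets were past 1.5-fold in the same direction for 21 of 22 lower and 9 of 9 higher genes.

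Both fasted pools carried the mRNAs of hepatocytes at similar levels. Of 14 measured hepatocyte markers, 13 lay within 1.5-fold, none was lower, and the amino acid catabolic gene Tat was 1.53-fold higher, with a list median of 0.15. Albumin mRNA, Alb, read 14282, 14292, 11968 and 17033 units. The receptor gene Hnf4a, which helps maintain the hepatocyte state, read 2198, 2676, 2545 and 2525 units.

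The receptor's relatives and partners differed in single genes. Among 10 measured genes of PPAR receptors, partners and coregulators, Ppara and the coactivator gene Ppargc1a were lower and the coregulator genes Nrip1 and Ppargc1b higher. Ppara and Ppargc1a were counted through the wild-type array alone and Ppargc1b through the null array alone. Of the 7 genes at 64 units or more on both fasted arrays, 1 was higher and none lower. Ppargc1a was dim, at 21.5, 75.1, 16.9 and 25.5 units. Ppargc1b read 22.2, 25.1, 15.6 and 92.5 units, and Nrip1, which encodes a corepressor of nuclear receptors, read 89.9, 121, 85.0 and 425 units. In both genes the fasted null pool stood above the other 3 pools. Pparg and Ppard, the other receptors of the family, reached 64 units on neither fasted array.

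Among the 20 largest deficits, 2 kinds of profile recurred across the 4 pools. In the first kind the fasted wild-type pool stood above the other 3 pools. Cyp4a14, a microsomal fatty acid ω-hydroxylase gene, read 16.3, 7278, 356 and 11.7 units. Vnn1, the gene of a pantetheinase that degrades a breakdown product of coenzyme A, read 35.4, 1795, 17.1 and 7.69 units. Cyp4a31, another ω-hydroxylase gene, read 9.17, 1073, 8.04 and 10.3 units. In these genes the fasted null pool was at or below the floor, so that the folds of at least 455, at least 112 and at least 67.1 are lower bounds. The P450 gene Cyp2c39 read 42.6, 548, 36.5 and 40.8 units, and the small GTPase gene Rab30 15.0, 397, 12.6 and 12.5 units, again with the fasted wild-type pool apart from the rest. Cox6b2, which encodes an isoform of a cytochrome c oxidase subunit known from testis, read 96.6, 842, 7.46 and 8.33 units and was at or below the floor in both null pools. Cyp4a genes, Cyp2c genes and other P450 genes lie in families of similar sequence, so signal may be shared between their members.

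In the other kind of profile both fed pools and the fasted wild-type pool carried the mRNA and the fasted null pool was low. Chac2, a gene of glutathione breakdown, read 666, 330, 622 and 14.5 units. The succinate receptor gene Sucnr1 read 944, 323, 951 and 17.6 units, and Keg1, a kidney-expressed gene of the glycine N-acyltransferase family, 1426, 446, 1412 and 34.4 units. In these 3 genes the fed pools of the genotypes were within 1.5-fold of each other. Phlda1 read 891, 1035, 1081 and 59.3 units. Ogt, the gene of the enzyme that attaches N-acetylglucosamine to proteins, read 379, 422, 369 and 35.6 units, and a second probe set differed by -1.74 against -3.57 for the brightest. The long noncoding RNA Neat1 read 2771, 5880, 3838 and 589 units. In these 3 genes the fasted null pool was low and the other 3 pools lay closer together. Nfe2l2, which encodes the antioxidant regulator NRF2, had the same profile at 801, 448, 751 and 45.0 units, while the list of 17 measured NRF2-responsive genes, which holds Nfe2l2 itself and its inhibitor gene Keap1, had a median of 0.05, with 2 higher and, beside Nfe2l2, Gclc and Me1 lower. Other profiles occurred too. Retsat, the gene of a retinol saturase, read 2745, 11140, 1036 and 463 units and was low in both null pools, and its second probe set differed by -6.37. Hspa1b, an inducible heat shock protein gene, was highest in fed wild-type liver at 2296 units and read 244, 530 and 21.1 units in the other 3 pools.

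**Figure D2:**
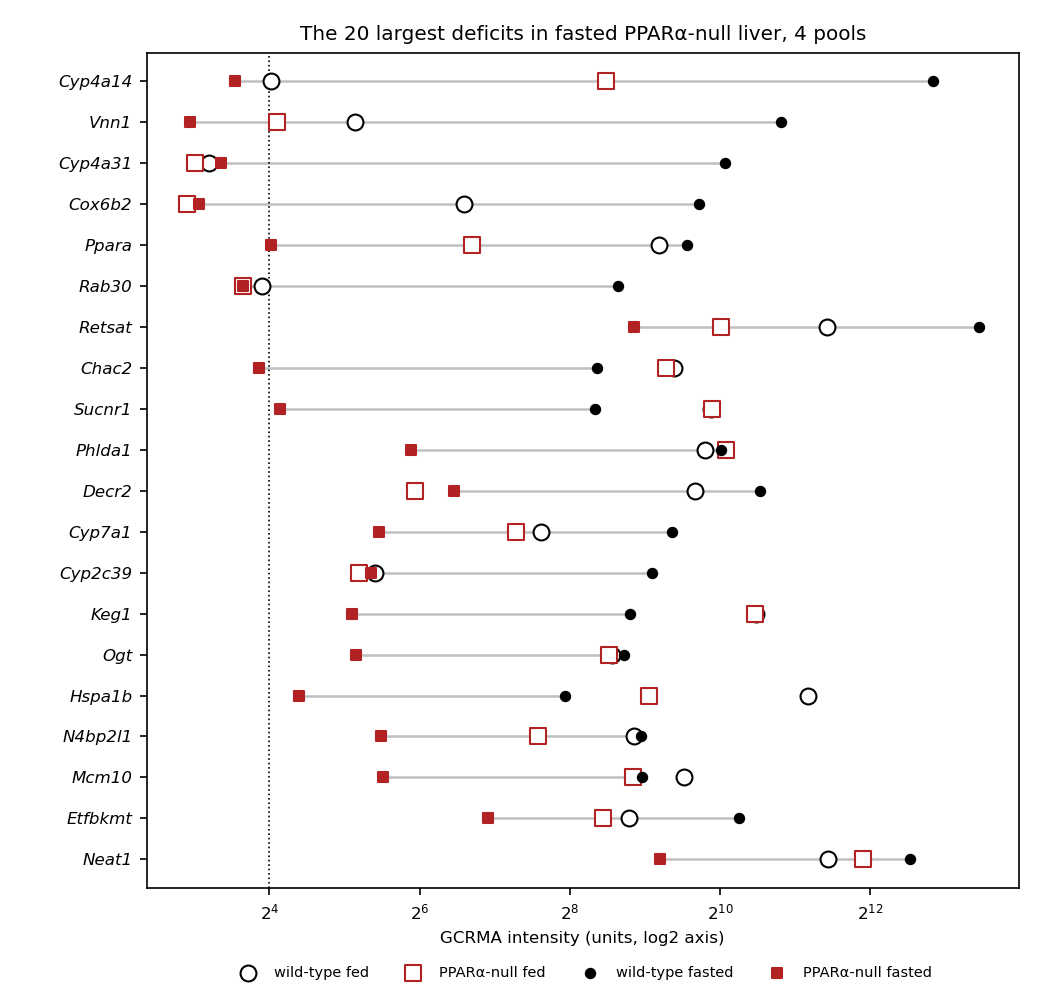
GCRMA intensity (horizontal, units, log2 axis) in the 4 pools for the 20 genes with the largest deficits in fasted PPARα-null liver, 1 array for each pool. Circles are wild-type and red squares PPARα-null, open symbols are fed and filled ones fasted, the grey line joins the fasted pools and a dotted line marks the floor at 16 units. Cyp4a14, Vnn1 and Cyp4a31 stood high in the fasted wild-type pool, while Chac2, Sucnr1 and Keg1 were low in the fasted null pool and higher in the other 3 pools.

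Genes of fatty acid catabolism were lower as a group. In the carnitine shuttle, which carries long-chain acyl groups into mitochondria, 7 of 9 measured genes were lower, none was higher and the median difference was -1.79. The carnitine-acylcarnitine carrier gene Slc25a20 read 445, 955, 91.4 and 140 units, and its second probe set differed by -2.73 against -2.76. Cpt2, the gene of the inner membrane palmitoyltransferase, read 998, 2067, 345 and 326 units. In both genes the wild-type pools lay above both null pools and did not overlap them. Crot, the gene of the peroxisomal octanoyltransferase, read 4466, 5250, 4869 and 1340 units, so that its fed null value stood with the wild-type values. Bbox1, which encodes the last enzyme of carnitine synthesis, read 920, 1170, 791 and 339 units. Cpt1a, the gene of the outer membrane palmitoyltransferase and the control step of the pathway, read 531, 1732, 183 and 2022 units, within 1.5-fold between the fasted pools and lower in null liver between the fed pools.

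In mitochondrial β-oxidation 15 of 19 measured genes were lower, none was higher and the median was -0.995. Eci1, the gene of an enoyl-CoA isomerase needed for unsaturated fatty acids, read 1171, 2180, 521 and 299 units. Acadvl, which encodes the dehydrogenase for very long acyl chains, read 1995, 3097, 748 and 923 units. Etfdh, the gene of the oxidoreductase that passes electrons from acyl-CoA dehydrogenases to ubiquinone, read 1279, 2549, 464 and 433 units. All 3 were lower in both null pools. Hadhb, a subunit gene of the trifunctional protein, read 5149, 7719, 4263 and 4034 units. Etfa and Etfb encode the subunits of the electron transfer flavoprotein, and Etfb was lower, at 1389, 1469, 703 and 737 units, whereas Etfa read 5713, 6557, 5540 and 5241 units and was within 1.5-fold.

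In peroxisomal β-oxidation 9 of 13 measured genes were lower, none was higher and the median was -1.13. Decr2, the gene of the peroxisomal dienoyl-CoA reductase, read 814, 1483, 61.5 and 88.2 units and was 13.2-fold lower in fed null than in fed wild-type liver. The bifunctional enzyme gene Ehhadh read 2279, 10629, 2216 and 1557 units, the thiolase genes Acaa1a 415, 1204, 412 and 225 units and Acaa1b 9072, 15244, 6157 and 3548 units. In Ehhadh and Acaa1a the fed pools of the genotypes were close, and the fasted wild-type pool stood above the rest. The phytanoyl-CoA hydroxylase gene Phyh and the sterol carrier gene Scp2, both of the same organelle, were within 1.5-fold at 18460 and 16775 units and at 11208 and 12402 units in the fasted wild-type and fasted null pools.

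Peroxisome biogenesis was lower in part, with 7 of 15 genes lower, none higher and a median of -0.56. Pex11a, which promotes peroxisome division, read 146, 1168, 144 and 283 units, and the membrane protein gene Pxmp4 75.3, 150, 29.9 and 29.3 units. The catalase gene Cat was 1.58-fold lower. Among 7 measured genes of ω-oxidation 4 were lower, and the fatty aldehyde dehydrogenase gene Aldh3a2 read 460, 1393, 215 and 183 units, while Cyp4f14, whose product hydroxylates leukotrienes and other lipids, was higher in null liver at 2166, 392, 3099 and 874 units. Of 4 measured ketone body genes, the thiolase gene Acat1, the β-hydroxybutyrate dehydrogenase gene Bdh1 and the transporter gene Slc16a7 differed by -1.14, -1.03 and -0.88. Among 11 measured genes of acyl-CoA thioesterases and coenzyme A turnover 8 were lower and none was higher, with a median of -0.90, and 4 of the 8, Vnn1 and Vnn3 among them, were counted through the wild-type array alone. Pank1, a pantothenate kinase gene at the entry to coenzyme A synthesis, read 2239, 3369, 2091 and 1389 units.

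Against 18.8% of all genes, the share lower in these lists ran from 7 of 15 to 15 of 19, and 1 gene in them, Cyp4f14, was higher. Of the 290 genes that entered through the wild-type array alone, where they had to be brighter, 208 were lower. Among genes at 64 units or more on both fasted arrays, where 464 of 3083 (15.1%) were lower, the lower genes were 6 of 7 in the carnitine shuttle, 14 of 18 in mitochondrial and 9 of 13 in peroxisomal β-oxidation, 4 of 12 in peroxisome biogenesis, 2 of 5 in ω-oxidation, 3 of 4 in ketone body metabolism and 4 of 7 in coenzyme A turnover. The respiratory chain and the citric acid cycle, which take up the products of β-oxidation, had smaller shares. Of 42 measured genes of the respiratory chain and ATP synthase 40 were within 1.5-fold, with Cox6b2 and Ndufs7 lower and a median of -0.14. Of 20 citric acid cycle genes 3 were lower and 1, the citrate synthase gene Cs, was higher, at 824, 709, 732 and 1504 units.

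**Figure D3:**
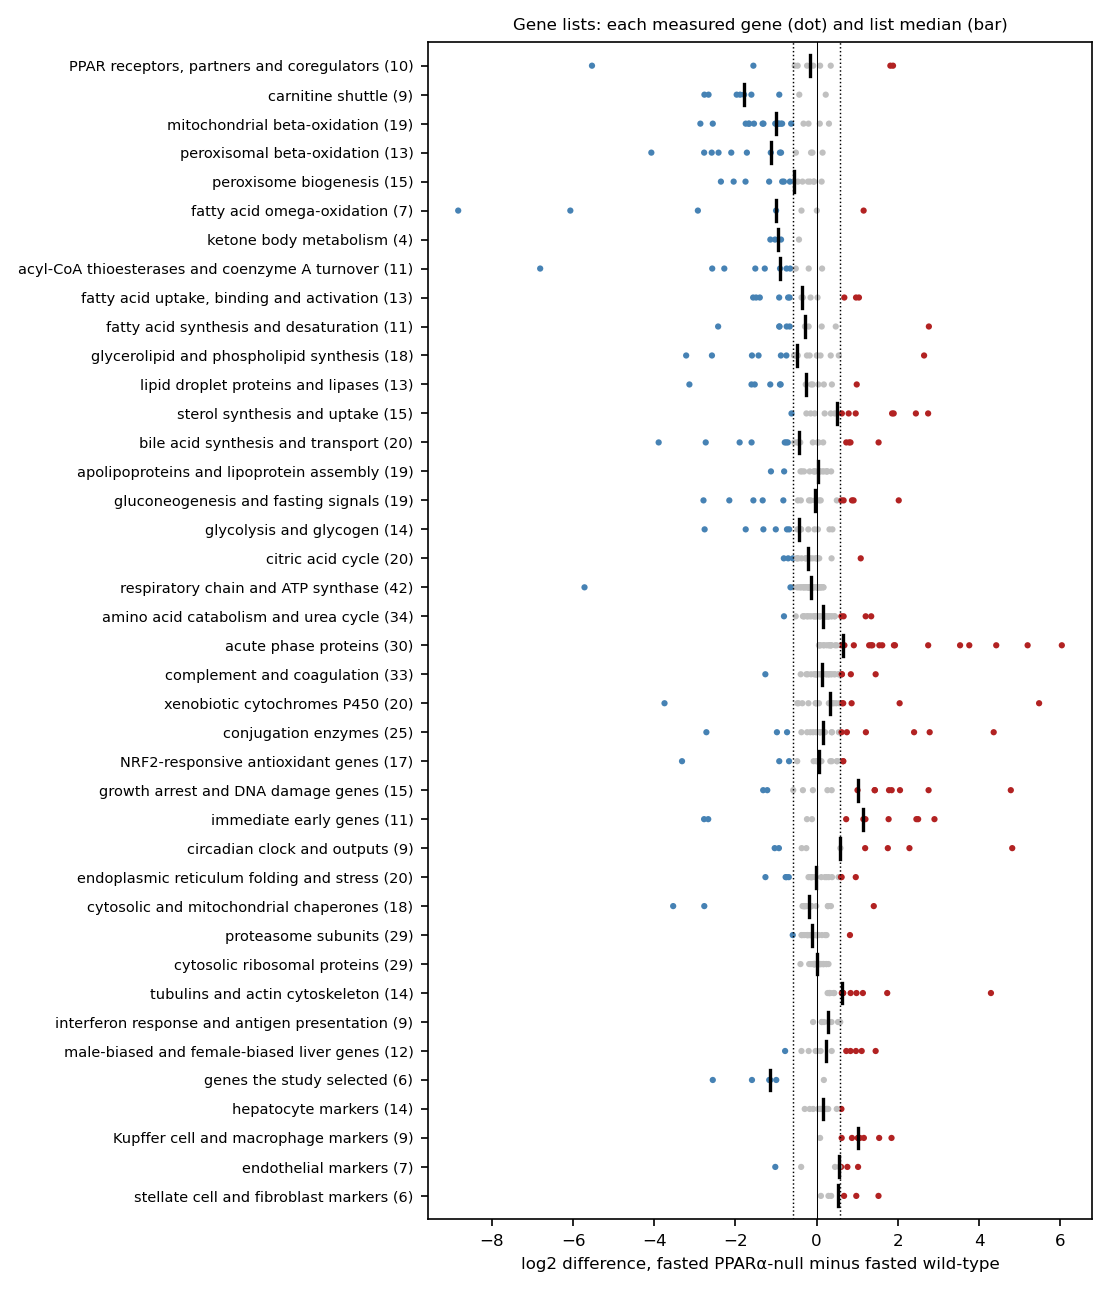
Difference between the fasted pools (horizontal, log2, PPARα-null minus wild-type) of each measured gene (dots) in every list with 4 or more measured genes, with the list median as a black bar and the number of measured genes in brackets. Blue and red dots are at least 1.5-fold lower and higher, and dotted lines mark that threshold. The carnitine shuttle, with a median of -1.79, and both β-oxidation lists lie to the left, Kupffer cell markers, at 1.03, and acute phase proteins, at 0.64, to the right, and cytosolic ribosomal proteins close to 0.

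The handling of fatty acids outside oxidation was mixed. Fabp1, the abundant cytosolic fatty acid binding protein gene of hepatocytes, read 23524, 20630, 23302 and 7814 units, so that 1 pool, fasted null, stood below the rest. Fabp4 and Fabp5, binding proteins best known from adipocytes, macrophages and skin, were higher by 1.96- and 2.06-fold, Fabp4 through the null array alone. Of 13 genes of uptake, binding and activation 6 were lower and 3 higher, the third being Acsm1. In glycerolipid and phospholipid synthesis, 6 of 18 genes were lower and 1 higher. Gpam, the gene of the mitochondrial acyltransferase that starts triglyceride synthesis, read 1500, 1301, 1479 and 140 units, and Gpd1, which supplies glycerol 3-phosphate, 460, 881, 349 and 147 units. The choline kinase gene Chka was higher, at 54.0, 18.1, 122 and 113 units, and entered through the null array alone. Lpin1 and Lpin2, phosphatidate phosphatase genes, read 3774 and 4799 units and 1927 and 2812 units in the fasted wild-type and fasted null pools and were within 1.5-fold, well above their fed values of at most 465 units. The other probe sets of Lpin2 differed by 0.45 to 1.40, so that 1 of them was past 1.5-fold.

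Among droplet proteins and lipases 6 of 13 genes were lower and 1 higher. Plin5, which tethers lipid droplets to mitochondria, read 39.1, 311, 9.15 and 35.4 units, and G0s2, an inhibitor of the lipase ATGL, 1024, 978, 1447 and 322 units. The ATGL gene itself, Pnpla2, read 61.9, 548, 67.7 and 620 units and the droplet coat gene Plin2 2405, 5822, 1920 and 7553 units, both within 1.5-fold between the fasted pools. In fatty acid synthesis and desaturation 5 of 11 genes were lower. The desaturase gene Scd1 read 3399, 1279, 2586 and 238 units. Thrsp, a gene that accompanies lipogenesis, was the higher one, at 2684, 441, 2152 and 2995 units, so that its fasted null value was near both fed values and the fasted wild-type value was apart.

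The 8 genes that the study selected for follow-up were picked partly from these arrays, so their directions are no independent evidence. Lipg and Lipe did not reach 64 units. Of the other 6, Txnip read 250, 1215, 154 and 541 units, and its second probe set differed by -1.06 against -1.17. Pctp, the phosphatidylcholine transfer protein gene, read 193, 867, 549 and 287 units, and the monoglyceride lipase gene Mgll 831, 1455, 588 and 659 units. The 3 member probe sets of Mgll differed by -1.73 to -0.71. With Etfb and Etfdh these made 5 genes lower, while Pnpla2 was within 1.5-fold.

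The lower genes were also examined for the sequence to which PPARα and its partner bind. Promoter windows of 300 bases, from 250 before to 50 after the start site, were taken from RefSeq for build GRCm38.p6, and 2950 of the 3579 genes had at least 1 entry. The hexamer AGGTCA, any 1 base and AGGTCA again were searched on both strands with at most 2 mismatches in the 12 fixed letters. A match was present for 20 of 549 lower genes (3.64%), 18 of 367 higher genes (4.90%), 90 of 2034 genes within 1.5-fold (4.42%) and 1190 of all 27025 genes in the table (4.40%). Of all 32851 promoters 3.86% held one. In the lists of fatty acid catabolism from the carnitine shuttle to coenzyme A turnover, 7 of 61 genes with an entry held a match (11.5%). Of these, Slc25a20, Aldh9a1, Acot12 and Cat were lower and the other 3 were within 1.5-fold. The 13 letters in Slc25a20 were AGGTGAAAGGTCG, 6 bases after the start site. A match is a description of letters in this window and not evidence of binding, and the window leaves out more distant sequence.

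The 250 bases before the start site are shown for 3 lower genes whose match had 1 mismatch, chosen after their values were seen, with the match in capitals. Pbld1 (885, 1112, 621 and 147 units), Fabp1 and the acyl-CoA thioesterase gene Acot12 (684, 2125, 468 and 1137 units) all lie on the plus strand, at chr10:63061339-63061588, chr6:71199629-71199878 and chr13:91741271-91741520 of GRCm38.p6. RefSeq lists a second start site for Pbld1, whose window at chr10:63060463-63060712 held no match and is not printed.
Pbld1: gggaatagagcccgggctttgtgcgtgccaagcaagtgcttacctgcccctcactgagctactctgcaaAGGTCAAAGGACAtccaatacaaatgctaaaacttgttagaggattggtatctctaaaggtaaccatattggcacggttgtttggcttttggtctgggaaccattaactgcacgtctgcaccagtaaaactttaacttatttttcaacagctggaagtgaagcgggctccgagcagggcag
Fabp1: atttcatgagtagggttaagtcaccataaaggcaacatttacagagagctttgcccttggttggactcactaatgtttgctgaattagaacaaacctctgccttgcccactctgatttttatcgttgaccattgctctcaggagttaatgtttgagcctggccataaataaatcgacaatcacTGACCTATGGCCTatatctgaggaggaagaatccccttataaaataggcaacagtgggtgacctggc
Acot12: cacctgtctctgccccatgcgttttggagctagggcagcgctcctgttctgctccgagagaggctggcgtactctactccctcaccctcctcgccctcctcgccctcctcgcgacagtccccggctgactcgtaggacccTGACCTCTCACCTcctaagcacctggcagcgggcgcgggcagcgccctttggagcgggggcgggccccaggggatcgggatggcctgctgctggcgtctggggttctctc
In Pbld1 the match lay on the strand of the gene, from -181 to -169 counted from the start, and in Fabp1 and Acot12 it lay on the opposite strand, from -67 to -55 and from -110 to -98.

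Genes of the acute phase response were higher as a group. Of 30 measured genes 16 were higher, none was lower and the median was 0.64, against 12.5% higher and a median of -0.05 over all genes. On both fasted arrays 24 of the 30 read 64 units or more, and 10 of these were higher, against 316 of 3083 (10.2%) over all genes. The other 6, Lcn2 and Orm2 among them, were counted through the null array alone, where they had to be brighter, and all were higher. Of the 206 genes that entered through the null array alone, 132 were higher. Lcn2, which encodes the siderophore-binding protein lipocalin 2, read 15.2, 18.8, 84.9 and 1238 units. The serum amyloid A genes Saa2 and Saa1 read 181, 147, 944 and 5392 units and 804, 570, 1729 and 6591 units. In these 3 genes fasted null was the highest pool and fed null the next, and both null pools lay above both wild-type pools. The metallothionein gene Mt2, a zinc-binding protein gene, read 32.9, 453, 64.9 and 9714 units and Orm2, an orosomucoid gene, 48.9, 33.0, 98.2 and 448 units. The most abundant transcripts of the list moved little, with the fibrinogen gene Fgb at 13260 and 18688 units, Fga at 11007 and 15100 units and the hepcidin gene Hamp at 15522 and 16246 units in the fasted wild-type and fasted null pools. The sign of the Hamp difference, 0.07, turned under lowess and quantile normalization.

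Saa1 and Saa2 are neighbouring genes on chromosome 7, transcribed away from each other, and their promoters are printed because both mRNAs differed in the same direction. The 250 bases before the start sites were at chr7:46742981-46743230 on the minus strand (Saa1) and at chr7:46751583-46751832 on the plus strand (Saa2) of GRCm38.p6, 8352 bases apart. Capitals mark a match to the same searched letters with 2 mismatches.
Saa1: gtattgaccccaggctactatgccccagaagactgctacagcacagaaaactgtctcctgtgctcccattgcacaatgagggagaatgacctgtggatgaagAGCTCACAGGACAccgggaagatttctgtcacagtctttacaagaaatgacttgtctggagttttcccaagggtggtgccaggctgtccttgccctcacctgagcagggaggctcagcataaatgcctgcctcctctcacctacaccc
Saa2: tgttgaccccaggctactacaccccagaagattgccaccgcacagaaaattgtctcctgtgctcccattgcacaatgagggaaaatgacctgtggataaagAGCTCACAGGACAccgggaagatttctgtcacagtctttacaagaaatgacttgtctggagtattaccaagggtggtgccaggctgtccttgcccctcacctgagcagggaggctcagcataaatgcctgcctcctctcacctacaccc
Aligned to each other, these windows shared 238 identical positions, with 11 mismatches and 2 gaps, an identity of 94.8%. The mRNAs of the Saa genes are also similar to each other, so the split of the signal between Saa1 and Saa2 is uncertain.

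Among the measured markers of other liver cells, several were higher beside the acute phase genes. Of 9 measured Kupffer cell and macrophage markers 8 were higher, none was lower and the median was 1.03. Their summed intensity was 1101, 652, 1216 and 1395 units in the 4 pools, so that fasted wild-type was the low pool. Of the 9 markers, 5 read 64 units or more on both fasted arrays, 4 of them higher, and the other 4 were counted through the null array alone. The complement gene C1qb read 195, 95.4, 232 and 343 units, the scavenger receptor family gene Cd5l 235, 139, 214 and 254 units and the complement receptor gene Vsig4 141, 75, 134 and 153 units. Of the endothelial list 3 of 7 were higher, and 1, Clec4g, was lower and counted through the wild-type array alone. Their summed intensity was 1752, 1433, 1607 and 1772 units in the 4 pools, so that fasted wild-type was again the low pool. Of the stellate cell and fibroblast list 3 of 6 were higher, among them Vim at 315, 253, 522 and 728 units. The sums of this list were 2608, 2825, 3323 and 4425 units. The array held 19 Kupffer cell and macrophage, 16 endothelial and 20 stellate cell and fibroblast genes of the lists. In each of these lists most genes, Pecam1 and Col1a1 included, reached 64 units on neither fasted array. No listed marker of neutrophils, lymphocytes, cholangiocytes or exocrine pancreas reached 64 units on either fasted array, although the lists had between 8 and 13 genes on the array. In whole liver, more cells of a type and more RNA per cell cannot be told apart, and the part of other cells in the acute phase result was not tested.

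**Figure D4:**
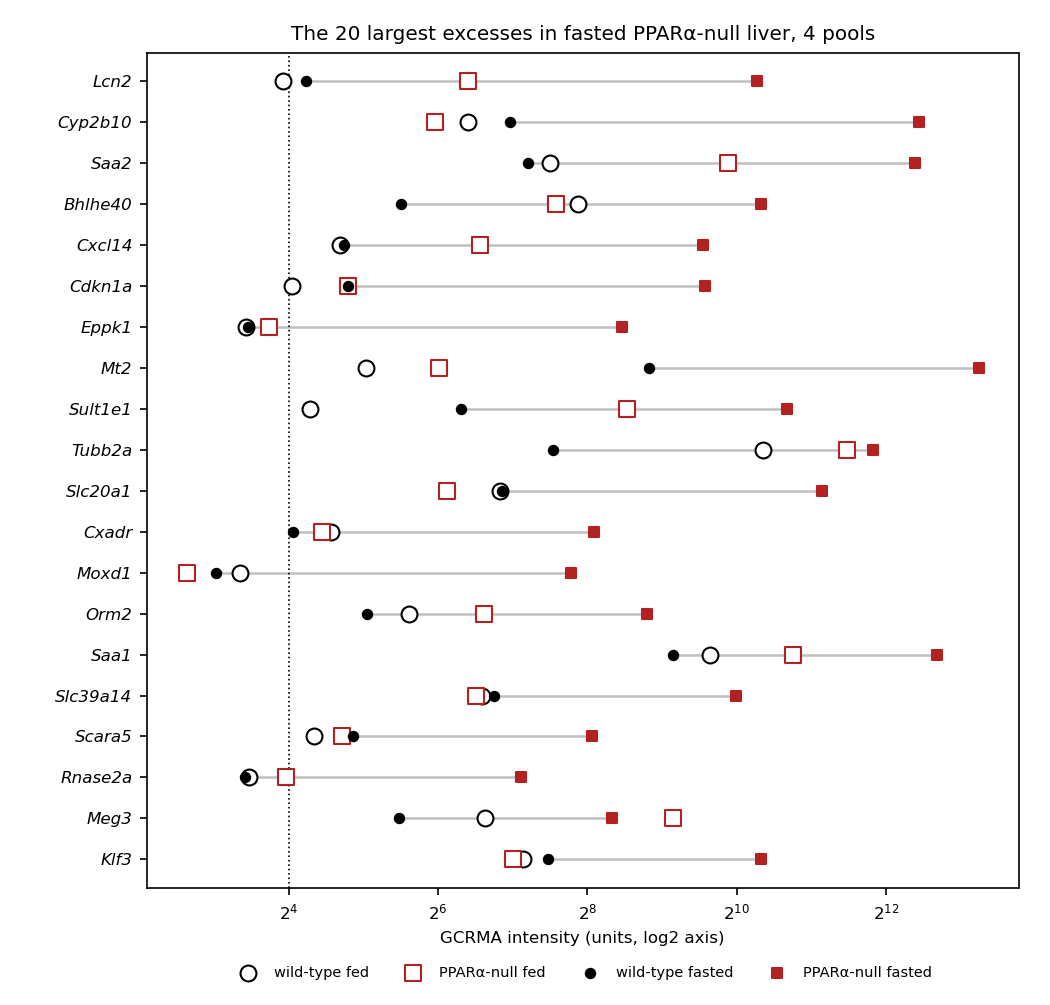
GCRMA intensity (horizontal, units, log2 axis) in the 4 pools for the 20 genes with the largest excesses in fasted PPARα-null liver, 1 array for each pool. Circles are wild-type and red squares PPARα-null, open symbols are fed and filled ones fasted, the grey line joins the fasted pools and a dotted line marks the floor at 16 units. For Lcn2, Saa2, Cxcl14, Sult1e1 and Orm2 the fed null pool already stood above both wild-type pools, while for Cyp2b10, Slc20a1 and Klf3 the fasted null pool alone stood high.

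Among genes of drug and hormone metabolism the differences went in both directions. Cyp2b10, a P450 gene known as a target of the receptor CAR, read 84.7, 125, 62.5 and 5574 units, and its other probe sets differed by 6.02 and 6.82 against 5.48. The fasted null pool was therefore apart from 3 pools that lay between 62.5 and 125 units. Of the 20 P450 genes measured, 5 were higher and 1, Cyp2c39, was lower. Cyp2c70, a P450 gene of bile acid hydroxylation in mice, read 8714, 1622, 6517 and 6689 units, with fasted wild-type the low pool. Sult1e1, the estrogen sulfotransferase gene, read 19.6, 79.6, 371 and 1636 units, and the methyltransferase gene Nnmt 55.0, 568, 241 and 3909 units. Gstt2, a glutathione S-transferase gene, was 6.57-fold lower and Gstm2 5.28-fold higher, and over 25 conjugation enzymes 6 were higher and 3 lower.

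Genes of sterol synthesis and uptake, a list that also holds regulators, were higher in part in the fasted null pool. Of 15 measured genes 7 were higher and 1 was lower, and the median was 0.51. Of the 15, 10 read 64 units or more on both fasted arrays, and 3 of these, Hmgcs1, Msmo1 and Insig2, were higher. The other probe sets of Insig2 differed by 0.47 and 0.51 against 0.62, within 1.5-fold. Those of Hmgcs1 differed by 0.28 to 1.01 against 0.96, so that they were not all past 1.5-fold. Msmo1 and Cyp51, enzymes of the path from lanosterol to cholesterol, read 3628, 160, 2902 and 870 units and 644, 24.1, 597 and 162 units. Hmgcs1, which makes the precursor of mevalonate, read 1980, 442, 2944 and 860 units. In Msmo1, Cyp51 and Hmgcs1 the fed pools were highest, fasted wild-type lowest and fasted null between them. Insig2, the gene of a regulator and not of an enzyme of the path, had another profile. It read 2298, 4897, 3097 and 7532 units, with both fasted pools above both fed pools. Bile acid genes went in both directions, with 7 of 20 lower and 4 higher. Of the 18 bright on both fasted arrays 5 (27.8%) were lower and 4 (22.2%) higher, against 15.1% and 10.2% over all genes bright on both. The other 2 lower genes were counted through the wild-type array alone. Cyp7a1, the rate-limiting enzyme gene of bile acid synthesis, read 197, 654, 155 and 44.1 units, and its second probe set differed by -5.31 against -3.89. The bile acid receptor gene Nr1h4 read 589, 1017, 530 and 153 units. The sterol exporter gene Abcg5 read 932, 1099, 263 and 362 units and was low in both null pools. Apolipoproteins were nearly level, with 17 of 19 genes within 1.5-fold, and Apoa1 at 27250 and 27923 units in the fasted pools.

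Glucose and amino acid metabolism differed in single genes more than as groups. Of 19 genes of gluconeogenesis and fasting signals 5 were higher and 5 were lower, around a median of -0.03 whose sign turned with centring. Of these, 3 of the lower genes were counted through the wild-type array alone and 1 of the higher genes through the null array alone. Among the 15 at 64 units or more on both fasted arrays, 4 were higher and 2 lower. Pck1, a control enzyme gene of gluconeogenesis, read 6226, 13994, 6007 and 12275 units and was within 1.5-fold. Pdk1 and Pdk4, kinase genes that restrain pyruvate oxidation, differed in opposite directions, at 674, 813, 641 and 118 units and at 22.5, 41.3, 107 and 168 units. The fasting hormone gene Fgf21 reached 64 units on neither fasted array. In glycolysis and glycogen metabolism 6 of 14 genes were lower and none was higher, with 5 of the 13 that were bright on both fasted arrays lower. The glucose transporter gene Slc2a2 read 2163, 2175, 2143 and 648 units, the glycogen synthase gene Gys2 282, 485, 235 and 195 units and Ppp1r3c, which targets a phosphatase to glycogen, 897, 108, 893 and 12.0 units. In amino acid catabolism and the urea cycle 29 of 34 genes were within 1.5-fold, and Asns, the asparagine synthetase gene, was 2.54-fold higher.

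Genes of growth arrest, early response and cytoskeleton included many that were higher. Of 15 growth arrest and DNA damage genes 8 were higher and 2 lower, and of 11 immediate early genes 7 were higher and 2 lower, with medians of 1.01 and 1.15. Cdkn1a encodes p21, an inhibitor of the cell cycle, and read 16.4, 27.7, 27.8 and 762 units. Sgk1, a kinase gene induced by glucocorticoids, read 296, 238, 225 and 1347 units. The early response genes Egr1 and Dusp6 were the lower ones, at 696, 120, 388 and 17.6 units and at 352, 144, 274 and 22.6 units. Many of these genes were dim, and 6 of the 8 higher growth arrest genes, Cdkn1a among them, and 2 of the 7 higher early genes were counted through the null array alone, where they had to be brighter, as Egr1 and Dusp6 were through the wild-type array alone. Among genes at 64 units or more on both fasted arrays, 2 of 7 growth arrest genes were higher and 1 lower, and 5 of 7 early genes were higher. Of 14 tubulin and actin cytoskeleton genes 8 were higher and none lower, with 6 of the 12 that were bright on both fasted arrays higher, and Tubb2a read 1311, 186, 2852 and 3641 units, with fasted wild-type the low pool.

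Bhlhe40, Slc20a1 and Slc39a14 were among the 20 largest excesses. Bhlhe40, a transcriptional repressor gene of the circadian clock, read 234, 45.5, 191 and 1282 units. Over 9 measured clock genes 4 were higher and 2 lower, or 2 and 1 of the 6 at 64 units or more on both fasted arrays. The 2 bright higher genes were Csnk1d, at 1.75, and Rora, at 1.19, and their probe sets disagreed. The other probe sets of Csnk1d differed by -0.80 and 1.88, so that 1 was past 1.5-fold the other way. The second probe set of Rora differed by 0.55, within 1.5-fold. Of the 19 clock genes on the array 10, among them Arntl, Per1 and Nr1d1, reached 64 units on neither fasted array. The phosphate transporter gene Slc20a1 read 114, 116, 69.4 and 2269 units, and its second probe set differed by 5.12 against 4.28. The zinc transporter gene Slc39a14 read 96.1, 108, 91.5 and 1021 units. In both transporter genes the other 3 pools lay between 69.4 and 116 units, far below the fasted null pool. The chemokine gene Cxcl14 read 25.7, 26.9, 94.4 and 748 units, and the imprinted noncoding RNA Meg3 99.5, 44.7, 568 and 321 units.

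Several groups were level between the fasted pools. All 29 measured cytosolic ribosomal protein genes lay within 1.5-fold, around a median within 0.01 of 0. Of 29 proteasome subunit genes 27 and of 33 complement and coagulation genes 28 were within 1.5-fold. All 9 measured genes of the interferon response and antigen presentation were too, though their median was 0.29 against -0.05 over all genes. In the fed pools 3 of them were higher in null liver. Of the 32 genes of that list on the array most, Irf7, Ifit1 and Mx1 among them, reached 64 units on neither fasted array, so the interferon response was measured only in part. Of 18 chaperone genes, Hspa1b and Hsph1 were lower and Hspb8 was higher. Hspa4 was within 1.5-fold by its brightest probe set, at 0.35, but its second probe set differed by -2.09. Folding and stress of the endoplasmic reticulum was no more level than all genes, with 3 of 20 genes higher and 4 lower.

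The fed pools shared no array and no mouse with the fasted pools, and showed a smaller difference between the genotypes. Over the 3579 genes the genotype difference had an SD of 0.878 in the fasted and 0.361 in the fed pools. Among 5542 probe sets at 64 units or more on the brighter fed array, 3.12% were higher and 3.03% lower in fed null liver. Of the 672 genes lower in fasted null liver 64 (9.52%) were also lower and 8 higher in fed null liver, and of the 448 higher genes 46 (10.3%) were also higher and 9 lower. Of the 2459 genes within 1.5-fold in the fasted pools, 36 (1.46%) were lower and 31 (1.26%) higher in fed null liver. Among genes at least 4-fold lower in fasted null liver, 22 of 83 were lower and 1 was higher in fed null liver, and among those at least 4-fold higher, 19 of 65 were higher and 2 lower. Across the 3579 genes Pearson's r of the fed and fasted differences was 0.311, a description over genes that are not independent and that share the substrains.

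**Figure D5:**
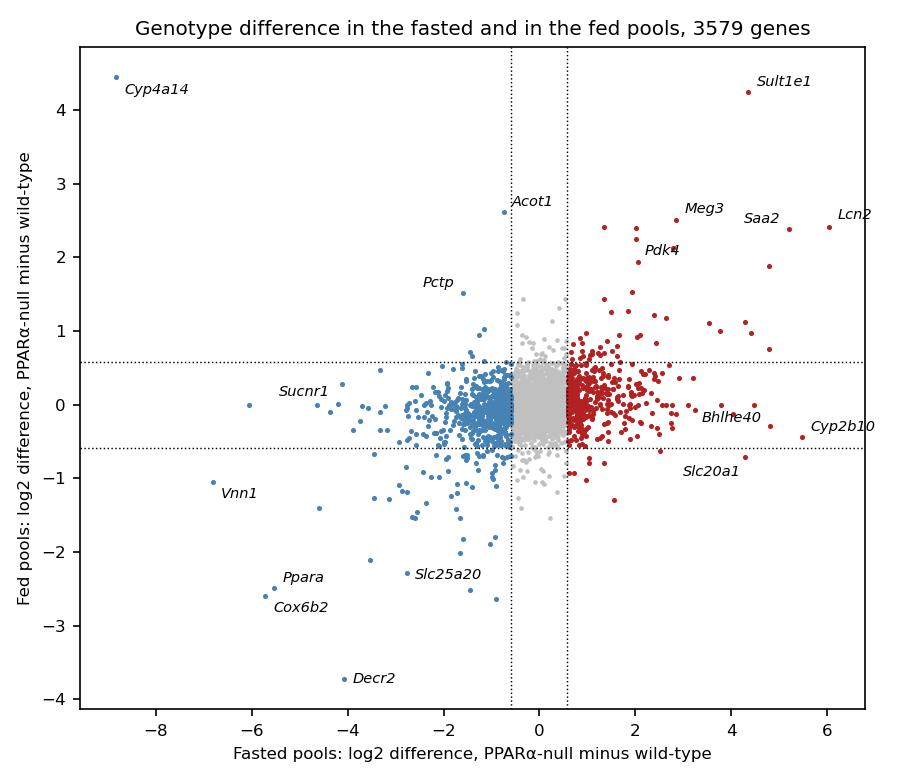
Genotype difference (log2, PPARα-null minus wild-type) of each of 3579 genes between the fasted pools (horizontal) and between the fed pools (vertical), with dotted lines at 1.5-fold. Blue and red points are lower and higher in fasted null liver. Decr2, Ppara and Slc25a20 lie low in both states, Lcn2, Saa2 and Sult1e1 high in both, and Cyp4a14 at -8.83 in the fasted and 4.45 in the fed pools.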

How the data were processed

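Liver RNA of 4 groups of mice was measured on 4 Affymetrix MOE430A arrays, 1 pool a group, and each array was assigned to its group from its label. The values, as deposited, are linear intensities, which the authors computed with GCRMA (version 2.20, per the submitters' processing notes). GCRMA corrects the background from probe sequence, normalizes quantiles between arrays and summarizes each probe set. The sources used here do not give the set of arrays that was normalized jointly, and the 2 fasted columns had medians of 14.4 and 14.6 units. Sources disagree on pool size and RNA amount, and the pool size of the series' design text is given.

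The deposited values were converted to log2 here, with a floor of 16 units. Member probe sets read 64 units or more on the brighter fasted array, 5142 of them named 1 gene, 298 several and 257 none, and genes were named only from probe sets with 1 symbol. A gene took its brightest member probe set, by the mean log2 value of the fasted arrays. Following the study's fold threshold for pooled arrays, 1.5-fold was the limit of a count. No test was possible with 1 array a group, so precision is limited by the number of arrays. The calculation was run on simulated arrays with known changes in probe sets of middle brightness. That run checks the arithmetic and not the precision of these arrays or of dim probe sets.

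The comparison, its members and the 46 gene lists were chosen with earlier results of these data known. Named genes were Ppara, the 20 largest differences in each direction among genes at 7 or more on the log2 scale of the brighter fasted array, the 8 genes selected by the study, and from each list up to 5 members with the largest difference and up to 3 with the highest level. Pbld1, Acot12, Arntl, Per1, Nr1d1, Pparg, Ppard, Fgf21, Irf7, Ifit1, Mx1, Pecam1 and Col1a1 were added after their values were seen. Alternatives were a 2-fold threshold, other brightness filters and floors, quantile normalization, centring, lowess (fraction 0.3), leaving out probe sets with an ambiguous suffix, averaged probe sets and counting genes. Tools were pandas 2.3.3, numpy 2.4.6, statsmodels 0.14.6, scipy 1.17.1 and matplotlib 3.10.9 under Python 3.11.15.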

Additional observations from a re-analysis of the deposited data

Results flagged for a closer look

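In 6 named genes the fed and the fasted pools differed between the genotypes in opposite directions, each past 1.5-fold. The difference between the feeding states was not tested, since each value rests on 1 pooled array a side, and no explanation was examined. Cyp4a14 had a difference of -8.83 between the fasted pools and of 4.45 between the fed pools, PPARα-null minus wild-type on the log2 scale. The fed wild-type value of Cyp4a14, 16.3 units, was close to the floor. Acot1, a cytosolic acyl-CoA thioesterase gene, read 142, 3193, 870 and 1909 units in fed wild-type, fasted wild-type, fed null and fasted null liver, with differences of -0.74 (fasted) and 2.61 (fed). Its family members are similar in sequence. Pctp had differences of -1.59 (fasted) and 1.51 (fed). Slc20a1 went the other way, with 4.28 (fasted) and -0.71 (fed), as did Fabp5 with 1.04 (fasted) and -0.72 (fed). Socs2, a gene of growth hormone feedback, read 88.6, 234, 43.5 and 457 units, with differences of 0.97 (fasted) and -1.03 (fed).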

How the results depend on the processing

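The direction of the named genes past 1.5-fold seldom changed, but several alternatives could not have changed it. A floor cannot turn a sign, and centring shifted every difference by 0.10, which is less than the threshold. Under centring and under each other brightness filter, every value of a named gene moved by less than the SD between probe sets. The values under these settings therefore say little about the direction. Of 2931 values of 304 named genes under the alternatives, 2810 moved by less than the SD between probe sets of a gene, 119 moved by more and 2, of genes past 1.5-fold, changed sign. Among those that moved less or more, 29 values, 19 of them under lowess, centring or quantile normalization, changed sign in genes within 1.5-fold, whose reported differences were at most 0.35 in size. Lifr, a cytokine receptor gene with a difference of 1.11, was at -0.028 without probe sets whose suffix marks several possible transcripts. Mcl1, a survival gene at 0.73, was at -0.069 with probe sets averaged. Of 418 list medians over 42 lists, 406 stayed and 12 moved, and 17 values of 5 medians changed sign, all of medians at most 0.035 in size. The counts of higher and lower probe sets, 684 and 1054, were 322 and 516 at a 2-fold threshold, 448 and 672 as genes, and 410 and 682 without suffixed probe sets. The share of deficits, 60.6%, was 45.7% with lowess, which turned the balance, 51.1% with centring and 52.2% with quantile normalization. Centring added 0.10 to every log2 difference. These shares differ with the scaling, and the cause was not tested. With a looser, a stricter or no brightness filter, or a floor of 64 units, the counts ranged from 500 to 941 higher and from 756 to 1525 lower. No replicate could be left out. No paired analysis was possible because each group held 1 array and the replicate numbers only name it. Low signal limits the dim genes, since 13 members were at or below the floor on the null array and 12 on the wild-type array, and their folds are bounds.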
